A study of Mus musculus with 5 samples.

Results

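The serum amyloid A genes of the mouse, Saa1, Saa2, Saa3 and Saa4, were followed in embryonic stem (ES) cells in which the nuclear protein SATB1 was overexpressed. The members were the probe sets of the array whose single gene symbol is that of one of these 4 genes. Each gene had 1 probe set, so that 4 of 35557 probe sets and 4 of 19938 genes are described here, and no probe set carried a Saa symbol together with another. RNA was measured on 5 arrays of mouse ES cells carrying a Satb1 transgene under a tetO promoter, which responds to doxycycline (DOX). The titles put the transgene in both groups, although the title of the series speaks of wild-type cells. Cells without DOX gave 2 arrays (titles tetO-Satb1 #1 and #2), called uninduced here, and cells given DOX for 24 h gave 3 (tetO-Satb1 #1 +DOX to #3 +DOX), called induced. All cells grew with the cytokine LIF and 15% serum, and RNA was taken 48 h after passaging. No DOX-treated cells without the transgene were among these samples. The labels give neither the number of clones nor the number of cultures behind each group, so the spread between arrays may be technical. Irradiated feeders, to be removed by settling before RNA preparation, stand in the treatment protocol but not in the design text.

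Serum amyloid A (SAA) proteins are small apolipoproteins of high-density lipoprotein. Saa1 and Saa2 encode the main acute-phase forms, which the liver secretes in large amounts during infection or injury. Saa3 is also made outside the liver, in macrophages, fat cells and fibroblasts, and Saa4 encodes a form that is made constitutively. In inflamed tissue these genes are switched on by interleukin 1, tumour necrosis factor and cytokines that signal through gp130, among them interleukin 6, acting on the transcription factors NF-kB, C/EBP and STAT3. LIF, which keeps mouse ES cells self-renewing, also signals through gp130 and STAT3.

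The 4 genes lie next to each other on chromosome 7, in the order Saa3, Saa4, Saa1 and Saa2 in the gene table of assembly GRCm38.p6. The gene table lists each of the symbols Saa1 and Saa2 as an older synonym of the other gene, and the symbols here follow the gene identifiers of the array's annotation. The promoters are shown because Saa1 and Saa2 have nearly the same promoter sequence while their probe sets gave different values. Each runs from 250 bases before to 50 bases after the RefSeq start (GRCm38.p6), 5′ to 3′ on the strand of the gene, and capitals mark matches to the C/EBP motif TTGCNNAA on either strand.
Saa1, chr7:46742931-46743230, minus strand: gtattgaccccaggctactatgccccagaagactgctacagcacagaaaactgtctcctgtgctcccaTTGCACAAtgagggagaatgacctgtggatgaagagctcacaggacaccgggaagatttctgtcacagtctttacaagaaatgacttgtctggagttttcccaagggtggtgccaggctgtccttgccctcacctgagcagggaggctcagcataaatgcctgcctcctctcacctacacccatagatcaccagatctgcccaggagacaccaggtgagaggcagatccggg
Saa2, chr7:46751583-46751882, plus strand: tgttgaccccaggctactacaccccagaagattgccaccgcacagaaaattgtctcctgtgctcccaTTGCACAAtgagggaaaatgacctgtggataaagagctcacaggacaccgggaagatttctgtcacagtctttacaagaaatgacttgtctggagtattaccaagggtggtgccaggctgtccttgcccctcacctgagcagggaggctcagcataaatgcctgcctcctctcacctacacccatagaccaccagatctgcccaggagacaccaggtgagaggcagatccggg
Saa3, chr7:46715627-46715926, minus strand: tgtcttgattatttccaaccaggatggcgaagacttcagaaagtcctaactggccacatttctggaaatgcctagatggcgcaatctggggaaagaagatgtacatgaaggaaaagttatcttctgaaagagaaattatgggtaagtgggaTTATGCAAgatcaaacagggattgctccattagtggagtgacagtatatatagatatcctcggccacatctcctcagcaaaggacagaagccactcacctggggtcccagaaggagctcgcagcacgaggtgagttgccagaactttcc
Saa4, chr7:46732554-46732853, minus strand: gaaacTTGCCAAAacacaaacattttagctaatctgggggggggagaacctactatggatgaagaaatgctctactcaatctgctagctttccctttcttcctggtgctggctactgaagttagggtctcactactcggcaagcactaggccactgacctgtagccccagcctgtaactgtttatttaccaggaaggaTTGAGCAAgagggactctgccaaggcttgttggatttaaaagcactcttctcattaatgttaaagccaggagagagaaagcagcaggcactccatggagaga

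Saa1 and Saa2 had the same base at 287 of 301 positions of a global alignment (95.3%), with 12 mismatches and 2 gap positions. All other pairs of promoters lay between 43.3% and 50.9%. The C/EBP match of Saa1, TTGCACAA, lay at -182 to -175 from the start, and the same letters lay at -183 to -176 in Saa2. Saa3 had the match TTATGCAA at -99 to -92, and Saa4 had TTGCCAAA at -245 to -238 and TTGAGCAA at -52 to -45. Of 32817 promoter windows of the same length in the table, 10.8% held such a match. The consensus of NF-kB, the STAT motif TTCNNNGAA and the TATA motif TATAAA, searched on both strands, had no match in the 4 windows, and 8.46%, 8.29% and 13.6% of all windows held them. No match overlapped another. The motifs were chosen after the sequences were seen. SATB1 binds AT-rich DNA, and the share of A and T was 46.3% in the window of Saa1, 46.7% in Saa2, 54% in Saa3 and 53% in Saa4, against a median of 47.3% over all windows.

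Levels below are log2 values summarised by the authors with RMA, which corrects background, normalises between arrays and summarises each probe set. Array medians over all probe sets lay between 4.91 and 4.92. The arrays bore out the labels: Satb1 was at 4.95 and 5.34 on the uninduced arrays and at 8.61, 8.79 and 8.68 on the induced arrays. The cells also had the markers of ES cells. All 12 measured markers lay above the median gene, with Pou5f1 between 9.86 and 9.96, Sox2 between 9.88 and 9.97 and Nanog between 9.75 and 9.88. Of the 12, 0 passed an adjusted p of 0.05 in limma, 3 had a higher and 8 a lower mean, and 2 had an unadjusted p under 0.05, both lower, against 1.07% of all genes in that direction. These 2 were Tdgf1, a Nodal co-receptor gene, at -0.21 ± 0.03 (standard error), and Dnmt3l, a cofactor gene of DNA methylation, at -0.23 ± 0.07. On every induced array these 2 of the 12 lay below both uninduced arrays, against 3.08% of all genes.

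Saa2 was the 1 member in which the groups were apart. It was higher in induced cells, while Saa1, Saa3 and Saa4 each had overlapping groups and a difference that depended on single arrays. All 4 genes were near or below the median of the array. The genes were selected on their symbols with the differences between induced and uninduced arrays already known, so these differences are a description, and no p-value is given for them.

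Saa2 encodes an acute-phase SAA. Its probe set, 10553274, was at 4.08 and 4.17 on uninduced arrays 1 and 2, and at 4.67, 4.49 and 4.67 on induced arrays 1, 2 and 3. The lowest induced array lay above the highest uninduced array, and no arrays had the same value. The means were 4.13 ± 0.07 (SD, n = 2) and, with DOX, 4.61 ± 0.10 (SD, n = 3), a log2 difference of 0.48 with a standard error of 0.08, or 1.40-fold. Every induced array lay above both uninduced arrays in 329 of 19938 genes (1.65%), and Saa2 is 1 of these. Only 4 genes, Satb1 among them, had a larger increase in the means. With each array left out in turn the difference of Saa2 lay between 0.44 and 0.54.

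Saa2 stayed below the array median in both groups. Its level minus the array median was -0.84 and -0.73 without DOX, against -0.25, -0.42 and -0.25 with DOX. The share of genes with a lower value was 24.6% and 27% on the uninduced arrays and between 35.0% and 39.8% on the induced arrays. Probe sets differ in how strongly they respond to their transcripts, so that these shares place a probe set on the array and do not rank amounts of RNA. In RNA from a whole culture, RNA from more cells that express a gene and more RNA per cell cannot be told apart.

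**Figure D1:**
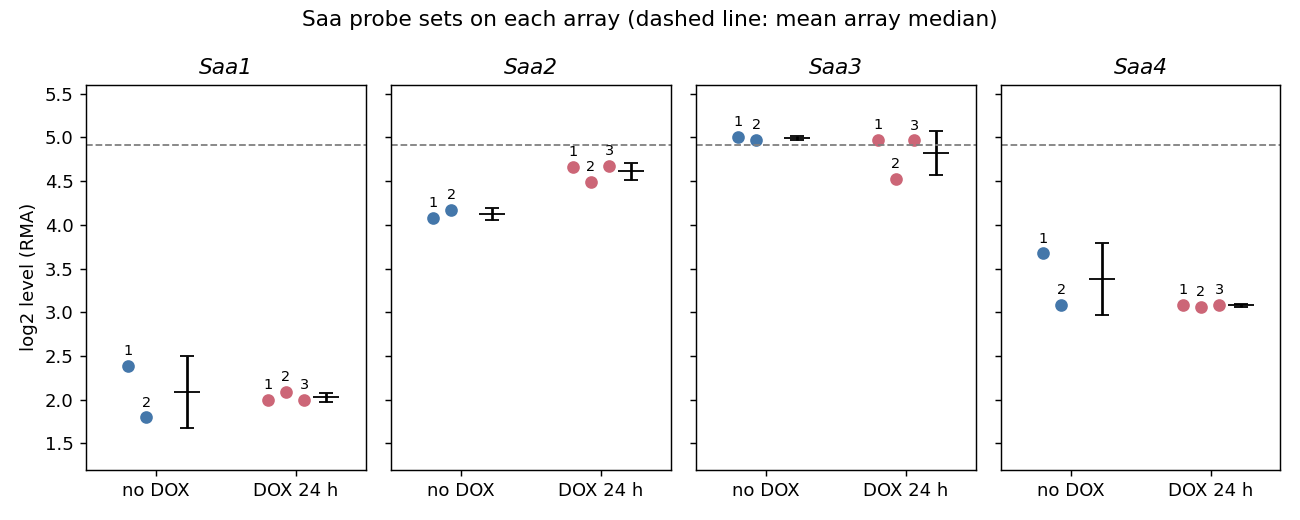
Log2 level (RMA) of the probe set of each Saa gene on every array, with uninduced arrays (no DOX) in blue and induced arrays (DOX 24 h) in red. Numbers are the array numbers, black bars show the mean ± SD of each group (n = 2 and n = 3), and the dashed line is the mean of the 5 array medians. Saa2 is the 1 gene whose induced arrays, at 4.49 to 4.67, all lie above both uninduced arrays, at 4.08 and 4.17.

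Saa1 encodes the other acute-phase SAA of the liver. Its probe set, 10563611, was at 2.38 and 1.80 on the uninduced arrays and at 2.00, 2.09 and 2.00 on the induced arrays. The uninduced arrays lay on either side of all induced arrays, so the groups overlapped throughout. The means were 2.09 ± 0.41 (SD, n = 2) and 2.03 ± 0.05 (SD, n = 3), and the log2 difference was -0.06 with a standard error of 0.21. Its sign depended on which uninduced array was used, at 0.23 without uninduced array 1 and -0.35 without uninduced array 2. Its level minus the array median ran from -3.11 to -2.54. Between 0.52% and 2.98% of genes had a lower value, which puts its probe set near the floor of these arrays.

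The different values of Saa1 and Saa2 carry a limit. The sources used here do not give the probes of each set. Transcripts of such closely related genes can bind probes of each other, and how much of either signal comes from the other gene was not tested.

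Saa3 encodes the SAA of macrophages, fat cells and fibroblasts. Its probe set, 10563597, was at 5.01 and 4.98 on the uninduced arrays and at 4.98, 4.53 and 4.96 on the induced arrays. Uninduced array 2 and induced array 1 had exactly the same value, and only induced array 2 stood apart, below the others. The means were 4.99 ± 0.02 (SD, n = 2) and 4.82 ± 0.26 (SD, n = 3), and the log2 difference of -0.17 had a standard error of 0.18. Without induced array 2 the difference was -0.02. Saa3 was the member closest to the array median, at 0.05 to 0.09 above it on all arrays but induced array 2, where its level minus the array median was -0.39. Between 35.7% and 48.6% of genes had a lower value.

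Saa4 encodes the constitutive SAA. Its probe set, 10563602, was at 3.67 and 3.09 on the uninduced arrays and at 3.09, 3.06 and 3.09 on the induced arrays. Uninduced array 2 and induced arrays 1 and 3 had exactly the same value, and uninduced array 1 alone was high. The means were 3.38 ± 0.42 (SD, n = 2) and 3.08 ± 0.02 (SD, n = 3), and the log2 difference was -0.30 with a standard error of 0.20. Without uninduced array 1 it was -0.0088, and without uninduced array 2 it was -0.60. Saa4 lay below the array median on every array, with differences from -1.85 to -1.24, and between 8.34% and 16.7% of genes had a lower value.

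Exact ties such as those in Saa1, Saa3 and Saa4 were common in this table. All 5 values were distinct in 1800 of 19938 genes (9.03%), and Saa2 was the 1 member among these. Identical values also recurred between genes, as in 2 examples picked after the values were seen. The value of Saa2 on uninduced array 2, 4.1745, was that of the gene Apob on all arrays. The tied value of Saa4, 3.0863, was that of the gene 2310061N02Rik. Why values recur was not tested, so a tie or a change of 0, here and below, does not by itself show an unchanged level. Uninduced array 1 was the high array in both Saa1 and Saa4. It was at least 0.5 above the mean of the other 4 arrays, with those within a range of 0.1, in 6 genes, of which Saa4 was 1. The same count was 5 for uninduced array 2, 10 for induced array 2, and 0 and 1 for induced arrays 1 and 3.

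**Figure D2:**
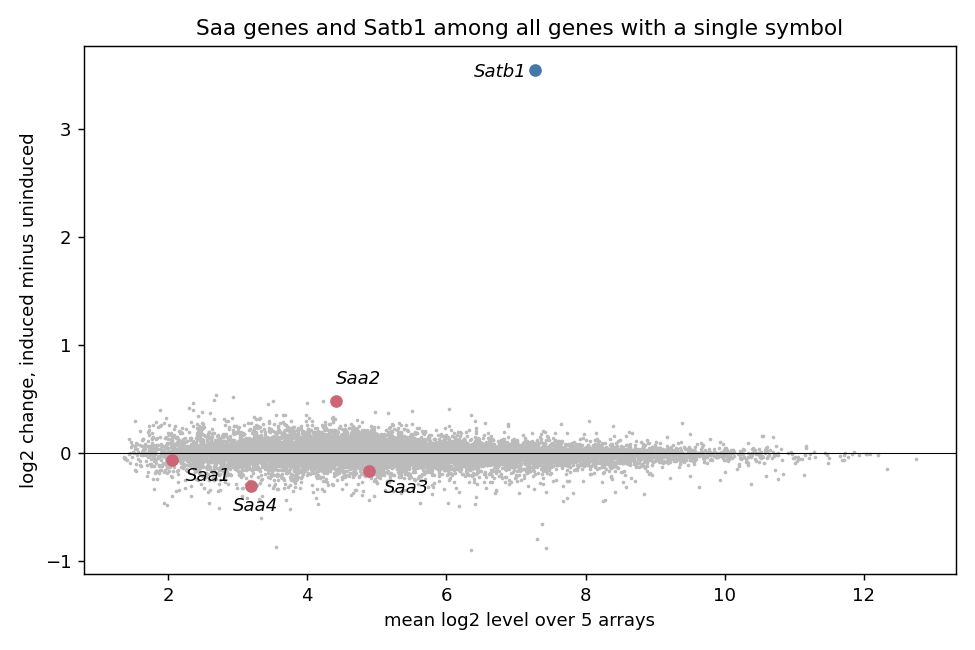
Log2 change (mean of 3 induced minus mean of 2 uninduced arrays) against the mean log2 level over 5 arrays for 19938 genes (grey), with the Saa genes in red and Satb1 in blue. Saa2, at 0.48, lies at the upper edge of the grey points, and Saa1, Saa3 and Saa4 lie below 0 at -0.06, -0.17 and -0.30.

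Across the 5 arrays Saa1 and Saa4 were more alike than the other members. Likeness was measured as the mean absolute difference between values centred on the mean of each gene. Saa4, the member with the widest range (0.61), differed from Saa1 by 0.12, from Saa3 by 0.23 and from Saa2 by 0.38. Of the 19938 genes, 207 were closer to Saa4 than Saa1 was, 18472 were closer than Saa3 and 19910 were closer than Saa2. The genes most like Saa4 were Igbp1b, Gm5622, 4930550L24Rik, A430060F13Rik and Sema4f, at 0.0086 to 0.032, each with a high value on uninduced array 1. For Saa2, a comparison chosen after its values were seen, the nearest genes were Rhd, Gm5946, 1700001J11Rik, Ermp1 and Cyp3a44, at 0.080 to 0.097. Saa1, Saa3 and Saa4 differed from Saa2 by 0.27, 0.31 and 0.38, with 17175, 19360 and 19827 genes closer to it.

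The other genes of the acute-phase response showed no comparable difference. Of 22 measured genes for acute-phase proteins, 0 passed an adjusted p of 0.05 in limma over all genes, 12 had a higher and 8 a lower mean, and 2 were equal. Over all genes, 3 of 19938 passed (0.015%), with 2 higher (0.01%) and 1 lower (0.00502%). Of all genes, 39.6% had a higher and 45.3% a lower mean. At an unadjusted p under 0.05 the list had 0 genes, against 1.55% of all genes (0.481% higher and 1.07% lower). Changes ran from -0.11 to 0.08 with a median of 0.01, against a median of 0 over all genes. The 4 with the smallest p were Cfb, which encodes complement factor B, at -0.11 ± 0.06 (standard error), the fibrinogen chain gene Fgb at 0.08 ± 0.05, the gene of lipopolysaccharide-binding protein, Lbp, at 0.08 ± 0.05, and Itih4 at 0.04 ± 0.02 (adjusted p = 0.770 for each, limma). In 0 of the 22 genes were the groups apart in either direction. Over all genes the induced arrays lay above the uninduced in 1.65% and below them in 3.08%. Only 2 of the 22 lay above the median gene in mean level.

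Transcription factors that act on Saa promoters, together with an inhibitor and cofactors of NF-kB, were measured in 16 genes, and 0 passed. Their means were higher in 4, lower in 7 and equal in 5, with changes between -0.06 and 0.07 and a median of 0. Nfkb2, an NF-kB subunit gene, was at 6.06 and 6.03 on the uninduced arrays and at 6.08, 6.18 and 6.08 on the induced arrays. All induced values lay above the uninduced values, by a small amount (0.07 ± 0.04, standard error, limma adjusted p = 0.770). Groups were apart in this 1 gene of the 16, against 1.65% of all genes with induced arrays above and 3.08% below. Cebpa, of the C/EBP family, had a change of -0.06, the NF-kB subunit gene Rela had -0.04, and Yy1, the gene of the zinc finger factor YY1, had -0.05. None of these 3 passed. Of the 16, 0 had an unadjusted p under 0.05.

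Cytokines that induce Saa genes, their receptors and the signalling steps just below them were measured in 18 genes, and 0 passed. Means were higher in 7, lower in 8 and equal in 3, and changes ran from -0.16 to 0.16 with a median of 0. Socs3, the feedback inhibitor of gp130 and STAT3 signalling, was at 6.81 on both uninduced arrays and at 6.74, 6.57 and 6.71 on the induced arrays. All induced values lay below the uninduced, and the change was -0.14 ± 0.06 (standard error; limma adjusted p = 0.770). Il6st, which encodes gp130, had -0.07 ± 0.04, with induced array 1 equal to uninduced array 1. Osmr, the oncostatin M receptor gene, had -0.16 ± 0.09, and Nr3c1, the glucocorticoid receptor gene, had 0.06 ± 0.03, with its induced arrays above both uninduced arrays. None passed (limma adjusted p = 0.770 for each), and 0 of 18 had an unadjusted p under 0.05. Of the 18 genes, 1 had its induced arrays above and 1 below, against 1.65% and 3.08% of all genes.

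Beside these, 6 genes of SAA receptors and 11 genes of high-density lipoprotein were measured. In limma 0 of either passed, also at an unadjusted p under 0.05. Receptor changes ran from -0.01 to 0.09, with a median of -0.0048. The pattern recognition receptor gene Tlr2 had 0.09 ± 0.06 (standard error), Scarb1, the receptor gene for high-density lipoprotein, had 0.07 ± 0.04, and Tlr4 and P2rx7 each had -0.01 ± 0.01. Lipoprotein genes ran from -0.11 to 0.11, with a median of 0. The apolipoprotein genes Apoc3, Apoc1 and Apom had 0.11 ± 0.07, 0.03 ± 0.02 and -0.05 ± 0.04, and Lcat, which esterifies cholesterol, had -0.11 ± 0.09. Groups overlapped in all of these genes. The listed receptor genes Fpr1 and Fpr2 had no probe set with a single symbol and so were not measured. The same held for Serpina3m, Serpina3g and C3 of the acute-phase list, Nfkb1 of the transcription factors and Il1r1 of the cytokine list.

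**Figure D3:**
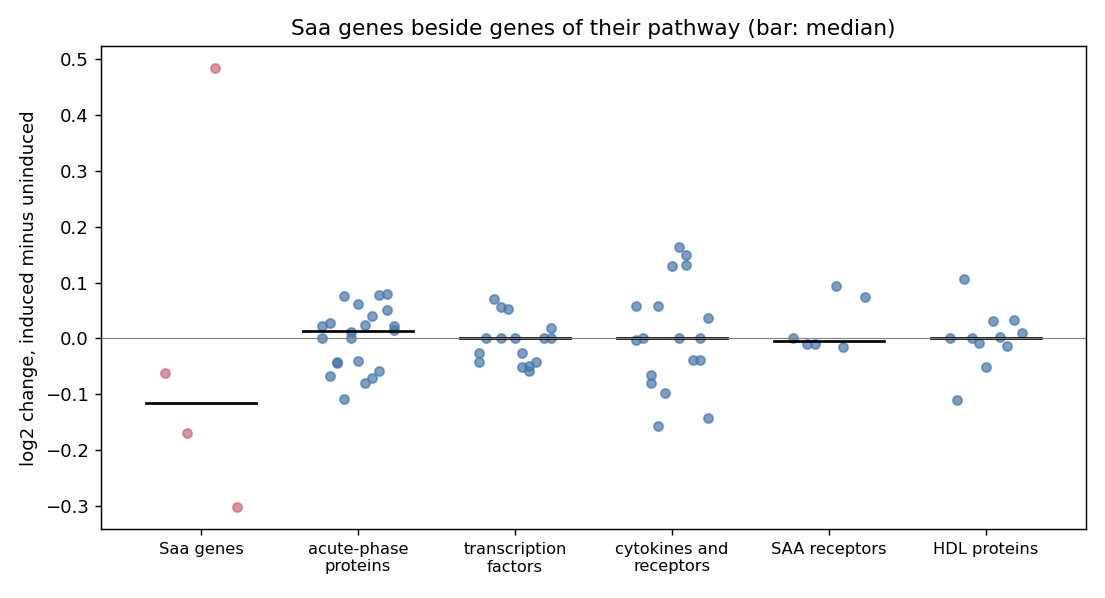
Log2 change (mean of 3 induced minus mean of 2 uninduced arrays) of the 4 Saa genes (red) and of the measured genes in 5 lists (blue), with a bar at the median of each. Changes in the 5 lists lie between -0.16 and 0.16, and Saa2 lies at 0.48.

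Genes on either side of the cluster were also read, with 5 protein-coding genes on each side. Of these 10, 0 passed in limma and 1, Ldha, had an unadjusted p under 0.05, against 0.015% and 1.55% of all genes. Saal1, the nearest protein-coding gene beside Saa3, was at 6.998 on 4 arrays and at 6.987 on induced array 2. Hps5, the nearest beside Saa2, was at 5.15 on 4 arrays and at 5.24 on induced array 2. Thus neither neighbour had a difference like that of Saa2. Ldha, which encodes lactate dehydrogenase A, a glycolytic enzyme, was at 10.81 and 10.99 on the uninduced arrays and at 10.72, 10.67 and 10.60 on the induced arrays. Its induced values all lay below the uninduced values, by -0.24 ± 0.08 (standard error; limma adjusted p = 0.770). Myod1, Sergef and Ldhc each had a single value throughout, and the changes of Kcnc1, Tph1, Gtf2h1 and Tsg101 lay between -0.03 and 0.03.

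**Figure D4:**
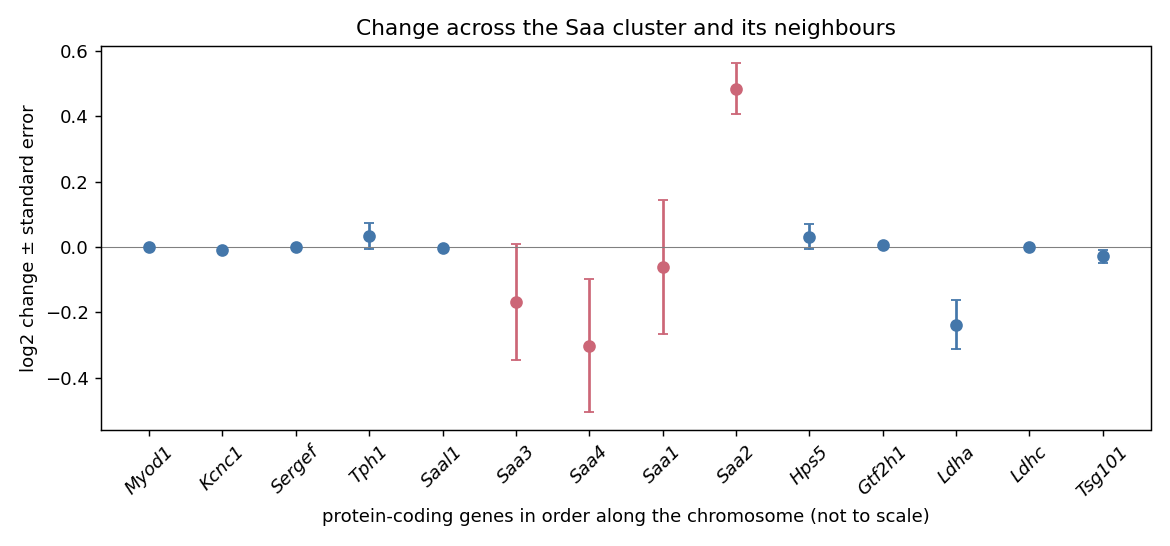
Log2 change (mean of 3 induced minus mean of 2 uninduced arrays) with its standard error from limma, for the Saa genes (red) and 5 protein-coding neighbours on each side (blue), in their order along the chromosome and not to scale. Saa2, at 0.48, and Ldha, at -0.24, are the 2 genes of the 14 whose groups do not overlap, against 1.65% of all genes with induced arrays above and 3.08% with induced arrays below.

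Other cells that can express Saa genes were followed through marker lists. No value is at 0 on this scale, where a probe set without its transcript still gives a background level. Summed log2 levels of 23 measured fibroblast markers were 118.11 and 118.30 on the uninduced arrays and 117.77 to 118.62 on the induced arrays, so the groups overlapped. The sum was lowest on induced array 1 and highest on induced array 3. Col1a1 lay between 6.07 and 6.09, Col3a1 between 5.42 and 5.49 and Pdgfra between 4.59 and 4.84. Of the 23 genes, 0 passed in limma, and 1 had an unadjusted p under 0.05, against 1.55% of all genes. It was the lysyl oxidase gene Lox (-0.20 ± 0.02, standard error, limma adjusted p = 0.697). Lox was at 4.59 on every induced array, an SD of 0 that lowers its standard error. Means of the 23 were higher in 11, lower in 10 and equal in 2. The largest increase, in Tagln, was 0.19 ± 0.14 (standard error), with overlapping groups. The part of fibroblasts in the Saa differences was not tested.

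Summed levels of 10 macrophage markers were 42.09 and 42.37 on the uninduced arrays and 42.15 to 42.63 on the induced arrays. Ptprc, Adgre1 and Csf1r each lay between 3.44 and 3.86. The other measured markers included Cd68, a lysosomal protein gene, the 1 gene of this list above the median gene, at 7.69 and 7.88 on the uninduced arrays and 7.69, 7.69 and 7.65 with DOX. For 10 markers of hepatocytes and visceral endoderm the sums were 44.76 and 44.74, against 44.66 to 45.27, and for 6 adipocyte markers they were 22.53 and 22.53, against 22.38 to 22.67. Alb, Afp and Ttr lay between 3.37 and 4.29, Adipoq between 2.94 and 3.01 and Plin1 between 4.55 and 4.61, all below the array median. Of the 10 hepatocyte and visceral endoderm markers, 3 lay above the median gene, the endoderm genes Gata4, Hnf4a and Amn. Gata6, another endoderm factor gene, was at 4.85 and 4.82 on the uninduced arrays and at 4.88, 4.89 and 4.99 with DOX, so that its induced arrays lay above both others, as those of Saa2 did (0.08 ± 0.04, standard error; limma adjusted p = 0.770). Tdgf1, Dnmt3l, Lox, Tagln, Cd68, Gata4, Hnf4a, Amn and Gata6 were named after their values were seen. The part of these cells in the Saa2 difference was not tested. The groups overlapped in each of these sums, and 0 genes of these 3 lists passed in limma, also at an unadjusted p under 0.05.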

How the data were processed

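The values analysed are deposited log2 levels of 35557 probe sets on 5 arrays, computed by the authors with RMA, per the submitters' processing notes. Version, software and genome build: not given in the sources used here. The log2 scale was read from the deposited values, which ran from 0.79 to 13.1. RMA forces arrays to a common distribution, so a shift of all transcripts would not be seen. The number of arrays limits the precision.

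Probe sets with 1 symbol in the array's annotation (21789) gave 19938 genes, the probe set with the highest mean standing for a gene. Groups came from the sample titles. Differences were fitted with limma 3.58.1 (lmFit and eBayes) in R 4.3.3 over all genes without a low-value filter, with Benjamini-Hochberg adjustment and a threshold of 0.05. The fit was tested on simulated data with 100 planted changes of 1 and 100 of 0.5, and a part of them was missed. With ties like those of these arrays, 82 and 63 of them were recovered, with 91 false calls. Without ties, 78 and 35 were recovered, with 2 false calls. With ties and a prior taken from genes without ties, 90 and 70 were recovered, with 17 false calls. The simulated noise had the spread of genes without ties, and tied arrays had no noise between them. The recovery may therefore not hold for these arrays.

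The members and lists were chosen with earlier results of these data known. Named genes were the members, up to 4 genes with the smallest p per pathway list, all 10 neighbours, the 5 genes most like the member of widest range, Satb1 and defining cell type markers. Alternatives were the mean over probe sets, median centring, repeated quantile normalization, the title number as a block, each array left out, eBayes with trend and robust, a limma prior taken from genes without ties, and genes above the median level. Promoter sequences are from RefSeq (GRCm38.p6), where all 4 members matched by symbol.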

Additional observations from a re-analysis of the deposited data

How the results depend on the processing

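Saa2 was higher in induced cells under every alternative run for it, at 0.45 to 0.49 with centring, repeated quantile normalization and the replicate block. Leaving out single arrays gave 0.44 to 0.54. The mean over probe sets could not move any member, because each had 1 probe set. The replicate block gave every member the same difference as leaving out induced array 3, so it is no separate check. In the other members centring, repeated quantile normalization and the replicate block moved the difference by less than the spread within groups. With single arrays left out Saa1 ran from -0.35 to 0.23, Saa3 from -0.24 to -0.02 and Saa4 from -0.60 to -0.0088. The sign of Saa1 turned without uninduced array 1, and the values of Saa1 and Saa4 rest on a difference between the 2 uninduced arrays. Set against the median over genes with a single symbol, a choice made after seeing the data, mean levels moved by less than the spread over arrays. Saa3 moved from -0.02 to -0.17, against a spread of 0.20 that includes its low value on induced array 2. It lay below this gene median on every array, with at most 48.6% of genes lower.

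Over all genes, 2 were higher and 1 was lower. Both counts were 0 with centring, repeated quantile normalization, the replicate block and genes above the median level, and 1 and 0 with a prior taken from genes without ties. Leaving out 1 array at a time gave 0 to 1051 higher and 0 to 1097 lower genes. The highest counts came without an uninduced array, where the lone array is assumed to vary like the induced ones. Of 83 genes in the 5 pathway lists and the neighbours, 0 to 5 were higher and 0 to 6 lower in those fits, the maxima again without an uninduced array, and 0 under the other alternatives. The cause was not tested. The title numbers do not show a pairing: deviations from the group mean correlated at -0.0063 for number 1 and 0.0063 for number 2. The deviations of the 2 uninduced arrays are equal with opposite sign, so these are not separate checks. They cannot decide whether the arrays were paired. With the title number as a replicate block Saa3 was at -0.24 and Saa4 at -0.31. Depth does not apply to arrays, and no detection call was made, so that a probe set near the floor, such as that of Saa1, gives no evidence on whether the transcript was present.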
